A study of Homo sapiens with 32 samples.

Results

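The sequence examined here was the 5000 nt just downstream of the annotated ends of human protein-coding genes, on the strand of the gene. A window was kept only where no other annotated gene on that strand lay in it. Of 19515 protein-coding genes, 14442 gave a window. Another gene on the same strand lay within the 5000 nt of 5044 genes, and 29 shared their end with a gene already kept. The choice used the annotation alone and no measured value. A stricter rule, with no gene on either strand, kept 8290 windows, and 12208 windows had 10 kb free on their own strand.

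The measurements were iCLIP tags, each of which marks the base where UV light had joined a protein to RNA in the living cell. FLAG-tagged Alyref, Chtop and Nxf1 were each expressed from a locus that tetracycline induces, in FlpIn-293 cells (cell line HEK293T in the labels), a line of human embryonic kidney origin into which 1 transgene copy can be recombined, and a Control line expressed the FLAG tag alone. All factor lines therefore kept their endogenous, untagged protein, and each was an integrated line in 1 cell background. Expression was induced over 48 h with tetracycline, 10 ng/mL in the Alyref and the Chtop line but 5 ng/mL in the Nxf1 line, and the sources used here give neither for the Control. Each group had 3 libraries, 12 in all.

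When RNA polymerase II passes the end of a gene, the nascent RNA is cut downstream of a hexamer, most often AATAAA in the DNA, and a poly(A) tail is added to the upstream piece. The polymerase goes on for some distance, and the downstream piece is degraded from its new 5′ end until transcription stops. Alyref and Chtop belong to TREX, which joins transcription and processing to export, and Nxf1 is the receptor that carries mRNA through the nuclear pore. RNA past the annotated end is thus RNA that was not cut there, or that was cut and not yet degraded, or RNA of a transcript the annotation lacks, and tags alone do not separate these.

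The libraries differed in depth, from 7017 to 631704 tags, and replicate 1 was the shallowest of every group. The windows held 33775 tags in all, 16232 from Alyref, 12046 from Chtop, 4155 from Nxf1 and 1342 from the Control. Window tags made up 0.968% to 1.56% of all tags of a library, mitochondrial ones included. Of the marker genes chosen for this line, VIM gave 98, 91, 30 and 8 tags in Alyref, Chtop, Nxf1 and Control. In the same order ENO2 gave 139, 119, 6 and 2, KRT8 42, 21, 10 and 1 and KRT18 11, 3, 4 and 0. NEFM gave 1, 0, 0 and 0. Of the markers of other cells, CD3E and GFAP were at 0 in every group, and ALB, PTPRC and MYH7 had at most 3 tags in a group. The labels do not say that replicates came from separate cultures, so the p-values below measure only the spread between these libraries.

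Single bases that were tagged again and again past gene ends are shown first, because they recur across libraries. A total of 32122 positions held a tag, 610 of them (1.90%) in at least 2 libraries, 38 in at least 6 and 17 in at least 8. Of these 17, 14 lay past VAV3. The 6 bases found in most libraries, 1 per window, are given below with 30 bases of the GRCh37 reference around them, read 5′ to 3′ on the RNA strand as DNA letters. The capital marks the crosslinked base.
VAV3, chr1:108113590-108113619, minus strand: gccccgtggacgctaTgcgtctagtaggag
RAB21, chr12:72197718-72197747, plus strand: ataactcttgtgtcaTcccgttgaacccca
RMI2, chr16:11479198-11479227, plus strand: ccgcactgggtgctgAggtcccatacccgg
MCM7, chr7:99686832-99686861, minus strand: ccctggagatggcagTgggggacggcggag
PER1, chr17:8042200-8042229, minus strand: ccccgcgcaggttcgAatcctgctcacagc
MUCL3, chr6:30923449-30923478, plus strand: ggcgccggaagctgcTgtcccggcggagtc

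The base past VAV3 lay 179 nt beyond the gene end and held 38 tags from 11 libraries. Its tags numbered 1, 5 and 6 in Alyref, 2, 5 and 2 in Chtop, 1, 4 and 7 in Nxf1 and 0, 2 and 3 in the Control. The Control thus held this base in 2 of its 3 libraries.

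The base past RAB21, a small GTPase of endosomes, lay 3667 nt beyond the end with 11 tags from 9 libraries, and no other base of that window was tagged. The base past RMI2, a subunit of the BLM helicase complex, lay 3694 nt beyond the end with 13 tags from 8 libraries. The base past MCM7, a subunit of the replicative helicase, lay 3010 nt beyond the end with 8 tags from 8 libraries, none of them a Control library. These 3 bases lie far past the gene with few tags around them, as isolated points.

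The base past PER1, a component of the circadian clock, lay 1576 nt beyond the end with 10 tags from 7 libraries. The base past MUCL3, a mucin-like gene, lay 1466 nt beyond the end with 7 tags from 7 libraries, each library giving 1, and none came from the Control. The base was T in 4 of the 6 and A in the other two. Each of the 6 stretches of 30 bases occurred once in the genome.

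The letters around the PER1 base led to a second set of sequences, chosen after the values were seen. They match the B box of tRNA genes, an internal promoter element that RNA polymerase III transcription uses, searched here as GGTTCGA, then 1 base of any kind, then TCC. These letters stood on the RNA strand of 17 windows (0.118% of 14442), at 18 places, and on the other strand of 20 windows (0.138%). Tags lay from 70 nt before to 30 nt after the letters at 5 of the 18 places, and 4 places held at least 10 tags. The 4 places are shown with the letters in capitals.
PER1, 1570 nt past the end, chr17:8042201-8042230, minus strand: tccccgcgcaGGTTCGAATCCtgctcacag
ATP5PD, chr17:73030528-73030557, minus strand: agggattgtgGGTTCGAGTCCcacctgggg
CCDC115, chr2:131094703-131094732, minus strand: aggtggcccgGGTTCGACTCCcggtatggg
PER1, 999 nt past the end, chr17:8042772-8042801, minus strand: ggagatcctgGGTTCGAATCCcagcggtgc

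Around the first PER1 place lay 83 of the 100 tags of that window, with 9, 18 and 21 in Alyref, 1, 5 and 3 in Chtop, 0, 14 and 6 in Nxf1 and 0, 3 and 3 in the Control. All 51 window tags past ATP5PD, subunit d of the mitochondrial ATP synthase, lay around the letters 4411 nt beyond the gene. All 31 window tags past CCDC115, a factor for assembly of the vacuolar proton pump, lay around the letters 784 nt beyond the gene. In all, 178 tags (0.527% of window tags) lay near these letters. A match of letters is a description of the sequence and does not show which polymerase made the RNA.

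Uniquely aligned reads may still come from sequence with near copies elsewhere, so the 20 bases just 3′ of each crosslinked base, the start of the read, were looked up in the whole genome. They occurred more than once for 30.5% ± 1.55 (SD, n = 3) of Alyref window tags, 27.2% ± 2.98 (SD, n = 3) of Chtop, 34.7% ± 10.4 (SD, n = 3) of Nxf1 and 32.1% ± 16.4 (SD, n = 3) of Control. Introns of the same genes were near this, with group means of 27.0% to 30.7%, while last exons had 13.2% to 17.2%. The shares in Nxf1 replicate 3 (44.9%) and Control replicate 3 (48.8%) stood above those of every other library. Of the 105 windows with at least 30 tags, 16 had at least 50% of their tags in such repeated sequence.

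Among the most tagged windows these shares differed widely. Past VAV3, 119 of 598 tags had repeated 20 bases, and 116 of these bases also occurred on an unplaced scaffold of GRCh37 that carries ribosomal DNA. Past RNF141, a RING-finger protein gene, 60 of 69 tags were repeated and 56 matched the mitochondrial chromosome. Its most tagged base, with 10 tags, is printed as a capital in the next line; its 30 bases occurred 3 times in the genome, 1 of them mitochondrial, and it was chosen after the values were seen.
RNF141, chr11:10531742-10531771, minus strand: atcaccccataaacaAataggtttggtcct

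Past PER1 72 of 100 tags were repeated, past ATP5PD 35 of 51 and past THOC5 29 of 50. Past CEBPE only 17 of 391 were, and none of the 55 past RPL36, the 11 past RAB21 or the 7 past MUCL3. The group differences were also computed with these tags left out, an alternative chosen after the data were seen, and the values for Chtop are given below.

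The first question was how tag density changed at the gene end. It fell at the end in every library of every group. For the 8619 genes with a last exon of at least 1000 nt, the last 250 nt of the exon held 482, 3853 and 3381 Alyref tags and the first 250 nt past the end 32, 409 and 384. In Chtop the tags went from 421, 6111 and 6467 to 27, 444 and 293. In Nxf1 they went from 101, 707 and 520 to 5, 99 and 131. In the Control they went from 44, 144 and 67 to 5, 43 and 24.

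The drop across the end was 10.7-fold in Alyref, 16.7-fold in Chtop, 8.04-fold in Nxf1 and 4.20-fold in the Control (geometric means of 3 libraries; log2 3.42 ± 0.41, 4.06 ± 0.36, 3.01 ± 1.12 and 2.07 ± 0.83, SD). The SD of Nxf1 covered the means of Alyref, Chtop and the Control. The smallest drops were those of Control replicate 3 (2.76-fold) and Control replicate 2 (3.32-fold), followed by Nxf1 replicate 3 (3.96-fold), and the largest was that of Chtop replicate 3 (22.0-fold).

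**Figure D1:**
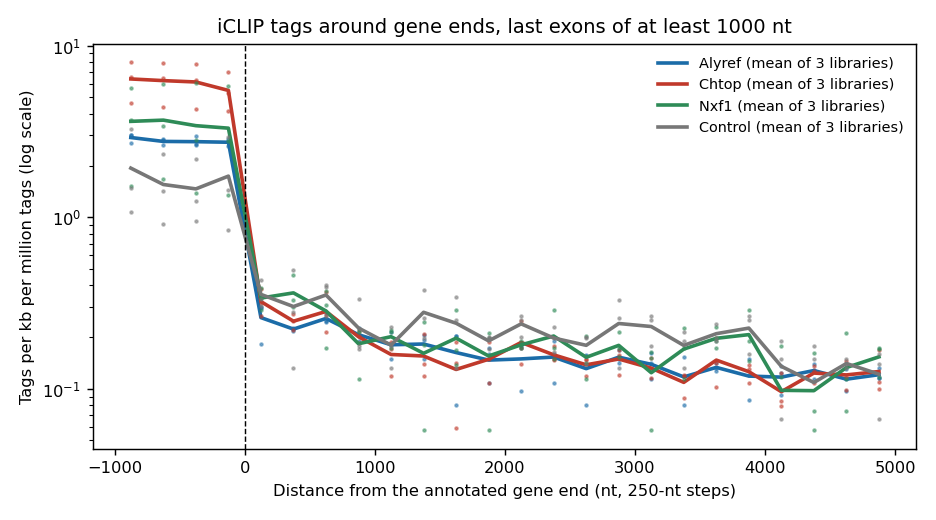
Tags per kb, scaled to a library's total off the mitochondrial chromosome (CPM per kb, log axis), in 250-nt steps from 1000 nt before to 5000 nt past the annotated end (dashed line) of 8619 genes; lines are group means of 3 libraries and points single libraries, with 2 library steps at 0 not drawn as points. Before the end Chtop lies highest and the Control lowest, whereas past the end the 4 groups lie close together and fall slowly.

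Past the drop the density declined slowly with distance and did not reach zero by 5000 nt. Over all windows, as a percentage of last-exon density, the first 250 nt held 9.09% ± 2.01 (SD, n = 3) in Alyref, 5.34% ± 1.14 (SD, n = 3) in Chtop, 10.6% ± 6.05 (SD, n = 3) in Nxf1 and 21.9% ± 6.13 (SD, n = 3) in the Control. The last 250 nt held 4.16% ± 0.73, 2.13% ± 0.87, 5.32% ± 3.36 and 7.83% ± 5.90 (SD, n = 3 each) in the same order. Even the shallowest factor library, Nxf1 replicate 1, held 3 tags in the last step past the genes with long last exons, and Control replicate 1 held 1.

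The base measure of the windows was the log2 ratio of tags per nt in the window to tags per nt in the last exon, summed over all kept genes. It was -4.44, -4.17 and -3.95 in the Alyref libraries (mean -4.19 ± 0.24, SD), which is 5.50 tags in the window for 100 in the same length of last exon. It was -4.62, -5.07 and -5.64 in Chtop (mean -5.11 ± 0.51, 2.89 per 100). It was -5.05, -4.32 and -3.13 in Nxf1 (mean -4.17 ± 0.97, 5.56 per 100) and -4.25, -2.87 and -2.19 in the Control (mean -3.10 ± 1.05, 11.7 per 100). The Chtop libraries lay below all Control libraries, whereas the Alyref and Nxf1 libraries overlapped the Control through its replicate 1.

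Each factor was set against the Control with a two-sided exact permutation test of the mean difference over 3 and 3 libraries, which cannot give a p below 0.1. Chtop lay 2.01 below the Control on the log2 scale (exact p = 0.1, the smallest possible, adjusted p = 0.6 over 12 comparisons with the Control). Alyref lay 1.09 below (exact p = 0.3) and Nxf1 1.07 below (exact p = 0.2), and all 3 factors were lower than the Control within each of the 3 replicate numbers. Replicates 1 and 3 of every group shared HiSeq lanes 7 and 8 and replicate 2 was on lanes 5 and 6, so each lane set held all 4 groups. None passed the adjustment.

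Against the 6 libraries of the other factors, Chtop differed by -0.94 on the log2 scale (exact permutation p = 0.0595, adjusted p = 0.238 over 12 comparisons between factors). It was lower within 2 of the 3 replicate numbers. Without Nxf1 replicate 1 the difference was -1.11 (exact permutation p = 0.0179). Alyref differed by 0.46 (exact permutation p = 0.429) and Nxf1 by 0.48 (exact permutation p = 0.393), and without Nxf1 replicate 3 the Nxf1 difference was -0.039. With repeated 20-base tags left out, Chtop differed from the Control by -1.95 and from the other factors by -0.85, so the differences were nearly as large without that sequence.

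Last-exon density sets this ratio from below, and factors differ in how many tags the last exon draws. Introns of the same genes, which are also RNA that processing removes, gave a second reference. The log2 ratio of window to intron density was -0.50, -0.62 and -0.65 in Alyref (mean -0.59 ± 0.08, SD), -0.08, -0.13 and 0.31 in Chtop (mean 0.04 ± 0.24), -0.25, -0.76 and -0.73 in Nxf1 (mean -0.58 ± 0.28) and -1.04, -0.98 and -0.59 in the Control (mean -0.87 ± 0.24). By this measure Chtop was the highest group, with window density close to that of introns, and none of its libraries overlapped another group.

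Chtop lay 0.62 above the other factors (exact permutation p = 0.0119, the smallest that 3 against 6 libraries allow, adjusted p = 0.143) and 0.91 above the Control (exact permutation p = 0.1, adjusted p = 0.6), higher within 3 of 3 replicate numbers both times. Neither passed the adjustment. With repeated tags left out the differences were 0.71 and 0.97. Chtop thus ranked lowest past gene ends relative to last exons and highest relative to introns. As a share of all tags of a library, window tags ranged from 1.05% to 1.29% in Chtop and 0.968% to 1.29% in Alyref. They ranged from 1.17% to 1.41% in Nxf1 and 1.07% to 1.56% in the Control. These ranges overlapped, so by this share no factor stood apart from the Control, and the ranks of Chtop hold only for the 2 references.

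**Figure D2:**
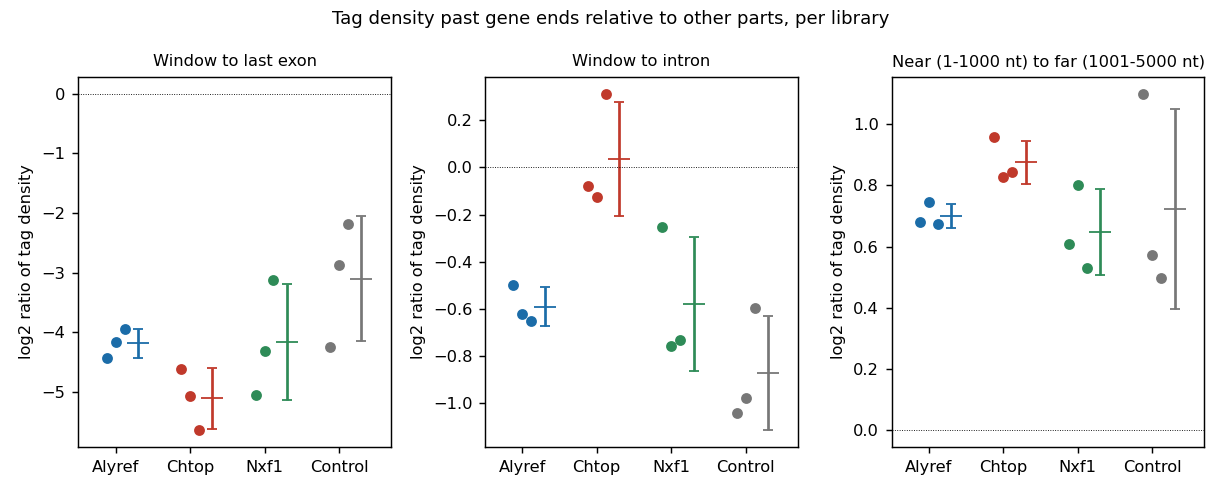
Each point is 1 library and bars are the mean and SD of 3 libraries; the axes give log2 ratios of tag density in the windows to last exons, in the windows to introns, and in the first 1000 nt to the remaining 4000 nt. Chtop lies lowest in the first panel and highest in the second, without overlap in the second, while Control replicate 1 overlaps the factors in the first.

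The fall with distance was summed up as the log2 ratio of tag density in the first 1000 nt to that in the remaining 4000 nt. It was 0.68, 0.74 and 0.67 in Alyref, 0.96, 0.83 and 0.84 in Chtop, 0.61, 0.80 and 0.53 in Nxf1 and 1.099, 0.57 and 0.50 in the Control. The density near the end was above that farther out in all 12 libraries, by 1.62-fold in Alyref, 1.83-fold in Chtop, 1.57-fold in Nxf1 and 1.65-fold in the Control (geometric means). The Chtop libraries lay above the other 6 factor libraries by 0.20 without overlap (exact permutation p = 0.0238, adjusted p = 0.143), which did not pass the adjustment. Without Chtop replicate 1 the difference was 0.16 (exact permutation p = 0.0714), and with repeated tags left out it was 0.14 (exact permutation p = 0.0952).

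In the 8290 windows with no gene on either strand, the opposite strand served as the background of the same DNA. The log2 ratio of same-strand to opposite-strand tags was 1.09, 2.15 and 1.79 in Alyref, 1.31, 2.20 and 1.61 in Chtop, 2.38, 1.82 and 0.92 in Nxf1 and 1.62, 2.21 and 1.08 in the Control. Same-strand tags were thus in excess in 12 of 12 libraries, 3.19-fold in Alyref and 3.27-fold in Chtop (geometric means). The group means (1.67, 1.71, 1.71 and 1.64) lay within 0.07 of the Control (exact permutation p = 0.8 to 1), far inside the spread of 0.45 to 0.73 between libraries of a factor, and the sign of these differences changed with single libraries. With repeated tags left out Chtop lay 0.07 above the Control.

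The windows were next divided by the hexamer at the end of the gene. AATAAA stood in the last 50 nt of 8792 genes (60.9%), ATTAAA without AATAAA in 1910 (13.2%) and neither in 3740 (25.9%). In the 50 nt that begin 1000 nt past the end, AATAAA stood in 2.87% of windows and ATTAAA alone in 1.95%. The search used the gene's strand only, and the letters are a description and do not show where the RNA was cut.

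Windows past genes with neither hexamer had more tags relative to the last exon in every library. The log2 ratio to the last exon averaged -4.47 in Alyref, -5.48 in Chtop, -4.40 in Nxf1 and -3.19 in the Control for AATAAA genes, and -3.53, -4.26, -3.55 and -2.65 for genes with neither. The difference between these classes was 0.94 ± 0.06 (SD, n = 3) in Alyref, 1.23 ± 0.21 in Chtop, 0.85 ± 0.39 in Nxf1 and 0.54 ± 0.29 in the Control, above 0 in 12 of 12 libraries. It was also above 0 in 12 of 12 libraries when genes with neither were set against ATTAAA genes.

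Both terms of the ratio moved. Tags per window were higher in genes with neither hexamer by 0.62, 0.84, 0.52 and 0.23 on the log2 scale in Alyref, Chtop, Nxf1 and Control. Tags per nt of last exon were lower, with differences of -0.31, -0.39, -0.33 and -0.31. Both held in 12 of 12 libraries. The Control showed the same direction as the factors.

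**Figure D3:**
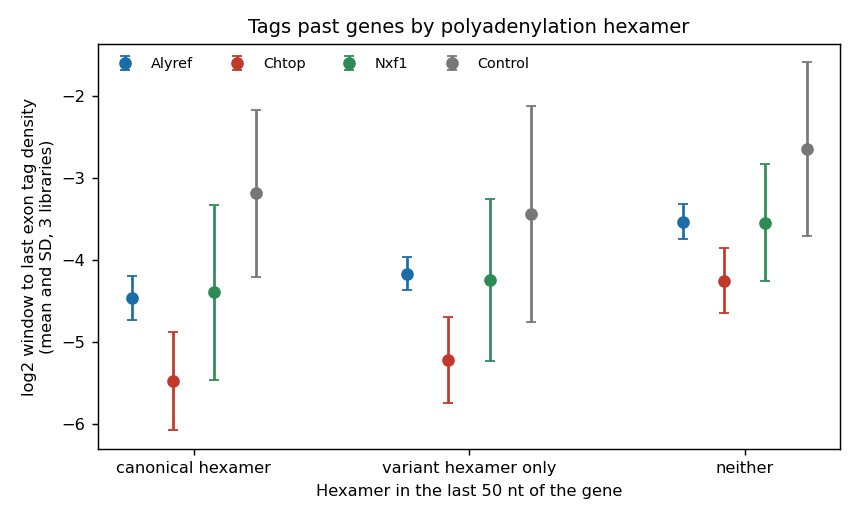
The log2 ratio of window to last-exon tag density (mean and SD of 3 libraries) for genes whose last 50 nt hold the canonical polyadenylation hexamer, hold only the variant one, or hold neither. In every group genes with neither lie highest, at -3.53 for Alyref and -4.26 for Chtop against -4.47 and -5.48 with the canonical hexamer.

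Other divisions held in fewer libraries. Genes with last exons over 2000 nt had the higher ratio in 11 of 12 libraries against last exons of 500 to 2000 nt, by 0.47 ± 0.06 (SD, n = 3) in Alyref, 0.36 ± 0.05 in Chtop, 0.24 ± 0.29 in Nxf1 and 0.69 ± 0.13 in the Control on the log2 scale. In the Control this mean difference exceeded that between the hexamer classes. Last exons under 500 nt averaged -4.65, -4.69, -4.48 and -3.74 in Alyref, Chtop, Nxf1 and Control. That was above both longer classes in Chtop and below both in the other groups. Genes under 10 kb had the higher ratio in 9 of 12 libraries against genes of 10 to 100 kb, by 0.40 ± 0.08 in Alyref, 0.67 ± 0.15 in Chtop, 0.23 ± 0.28 in Nxf1 and 0.15 ± 0.42 in the Control. Genes over 100 kb averaged -4.05, -5.06, -3.81 and -2.49 in the same order. Genes of 10 to 100 kb averaged -4.30, -5.27, -4.31 and -3.29. The middle class was thus the lowest in every group, and the ratio did not fall steadily with gene length. Single-exon genes, whose RNA is not spliced, had the higher ratio in 7 of 12 libraries, by 0.48 ± 0.22 in Chtop but -0.02 ± 0.27 in Alyref, -0.26 ± 1.06 in Nxf1 and 0.07 ± 1.28 in the Control.

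The excess of near over far tags was larger past genes over 100 kb than past genes of 10 to 100 kb in 11 of 12 libraries. Without the windows past VAV3, SLC7A8 and CEBPE it was larger in 4 of 12. CEBPE is shorter than 10 kb and so in neither class. That pattern therefore rested on the windows past VAV3 and SLC7A8.

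The base at the crosslink was also compared. U (T in the DNA) stood at the crosslinked base for 54.9% ± 5.59 (SD, n = 3) of window tags in Alyref, 53.5% ± 5.05 in Chtop, 54.6% ± 1.18 in Nxf1 and 48.6% ± 8.07 in the Control, whereas T made up 27.2% of the bases in the windows. In last exons the shares were 58.2% ± 0.41, 59.9% ± 1.61, 54.3% ± 4.56 and 51.5% ± 6.42, with 28.7% T in the sequence. The window shares of each factor overlapped those of the Control within their SDs, and U was over-represented in all 4 groups.

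How widely the windows were covered followed the depth. A tag in any library was found in 7900 windows (54.7%), of which 2991 held a single tag and 105 at least 30. Alyref had tags in 5598 windows (38.8%), Chtop in 4439 (30.7%), Nxf1 in 2521 (17.5%) and the Control in 986 (6.83%). All 3 factors had tags in 1158 windows (8.02%). A count of 0 in a window allows up to 2.28 CPM in Alyref and 33.3 in the Control (3 tags of the group's total, counting error only), so an empty window in the Control says little.

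Windows with tags lay mostly past genes whose last exon was itself tagged. The 5579 genes with no last-exon tag held 10.6% of window tags, and 31.2% of their windows had a tag. With 1 to 9 last-exon tags the share of windows with a tag was 58.1%, with 10 to 99 it was 75.7%, and with 100 or more it was 81.7%. Window tags per kb over all libraries rose from 0.128 to 0.447, 0.795 and 1.01 across these 4 classes, which is a far smaller range than that of the last-exon tags themselves.

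The most tagged window held 1.77% of window tags, the top 3 held 4.43%, the top 10 held 6.98% and the top 100 held 19.6%. The top 1000 windows held 52.6%, so the tags were spread over many genes.

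The most tagged window was that past VAV3, with 598 tags at 142 positions, all between 164 and 675 nt beyond the end. It held 30, 87 and 77 tags in Alyref, 30, 68 and 38 in Chtop, 4, 79 and 105 in Nxf1 and 2, 39 and 39 in the Control. The last exon of 2212 nt held 10 tags over all libraries. In CPM (tags scaled to the library's total off the mitochondrial chromosome) the Control (729 ± 399, SD, n = 3) and Nxf1 (582 ± 86.6) were above Chtop (285 ± 307) and Alyref (212 ± 137), so this window drew no more tags from the factors than from the Control.

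The windows past SLC7A8, an amino acid transporter, and past CEBPE, a transcription factor of granulocyte development, are neighbours on the minus strand of chromosome 14. The SLC7A8 window (chr14:23589504-23594503) ends 39 nt before CEBPE starts, and the CEBPE window (chr14:23581245-23586244) follows that gene. The SLC7A8 window held 5, 157 and 146 Alyref tags, 7, 59 and 75 Chtop tags, 2, 18 and 25 Nxf1 tags and 1, 6 and 6 Control tags, all from 2387 to 4994 nt past the end and so in the part near CEBPE. The last exon of SLC7A8 held 3 tags.

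The CEBPE window held 9, 124 and 131 Alyref tags, 2, 51 and 39 Chtop tags, 0, 7 and 23 Nxf1 tags and 0, 3 and 2 Control tags, spread over 351 positions from 29 to 4988 nt. The CEBPE last exon held 191 tags and its introns 203. Tags thus ran from the sequence upstream of CEBPE through the gene and past its end, unlike those past VAV3 and PER1, which stood in narrow groups.

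**Figure D4:**
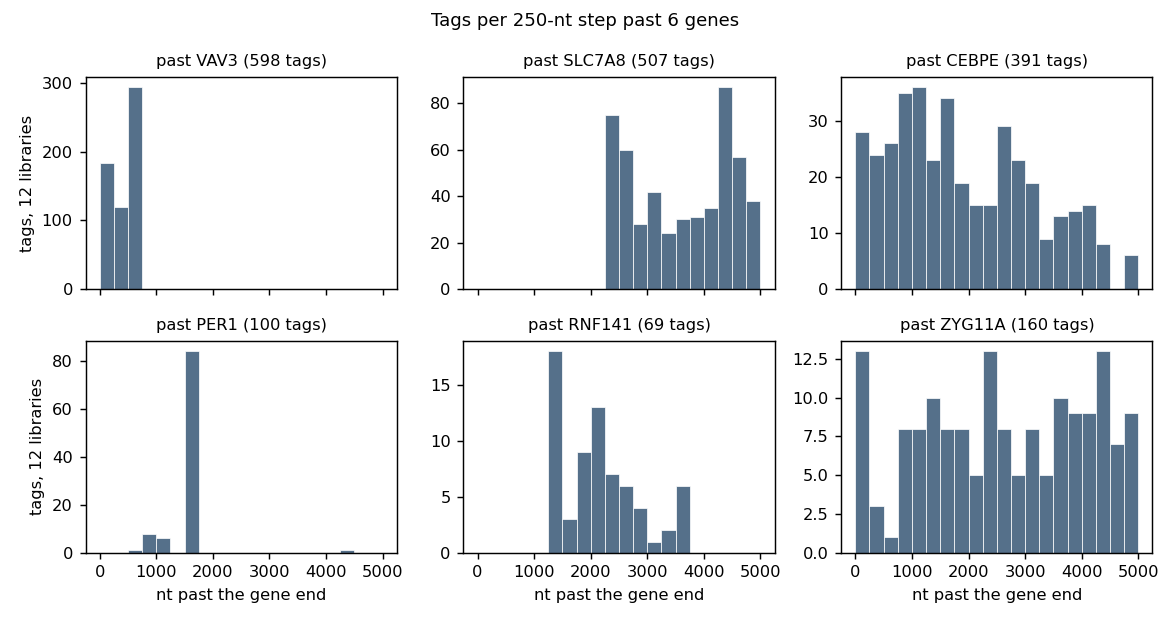
Tags of all 12 libraries in 250-nt steps (bars, linear axes that start at 0) against distance past the gene end for 6 windows. Past VAV3 and PER1 the tags fill a few steps, past SLC7A8 they begin at 2387 nt, and past CEBPE and ZYG11A they run through nearly the whole 5000 nt.

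Several other windows were tagged along most of their length. Past ZYG11A, a substrate receptor of a ubiquitin ligase, 160 tags lay at 150 positions from 19 to 4968 nt, with 3, 27 and 18 in Alyref, 4, 44 and 57 in Chtop, 0, 3 and 4 in Nxf1 and 0 in each Control library. Past LONRF3, a RING-finger gene, 111 tags lay at 109 positions, with 2, 15 and 24 in Alyref, 5, 34 and 27 in Chtop, 1 in each Nxf1 library and 1, 0 and 0 in the Control. Chtop had the highest CPM in both, 99.9 ± 28.5 (SD, n = 3) and 77.5 ± 25.1, although the LONRF3 values rest on 1 tag per library in Nxf1 and on a single tag in the Control. The tags spread over nearly as many positions as there are tags, so they were not pile-ups.

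Past PUSL1, a pseudouridine synthase-like gene, 127 tags lay at 118 positions, with 1, 19 and 17 in Alyref, 0, 46 and 37 in Chtop, 1, 3 and 2 in Nxf1 and 0, 0 and 1 in the Control. Past CHTF18, a subunit of a clamp loader, 122 tags lay between 30 and 3401 nt, with 1, 20 and 13 in Alyref, 1, 43 and 31 in Chtop, 1, 7 and 4 in Nxf1 and 1, 0 and 0 in the Control. Past COG8, a subunit of a Golgi tethering complex, 67 tags were found, with 26 and 19 in Chtop replicates 2 and 3 and at most 8 in any other library. The annotated last exon of CHTF18 is 51 nt long and held 1 tag, whereas its introns held 69.

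Past RNF141 the tags numbered 2, 8 and 15 in Alyref, 3, 9 and 5 in Chtop, 0, 9 and 12 in Nxf1 and 1, 1 and 4 in the Control. Past ATP5PD they numbered 4, 10 and 9 in Alyref, 2, 4 and 2 in Chtop, 0, 8 and 9 in Nxf1 and 0, 1 and 2 in the Control. Past PER1 they numbered 10, 22 and 26 in Alyref, 2, 8 and 3 in Chtop, 0, 15 and 8 in Nxf1 and 0, 3 and 3 in the Control. In these 3 windows, which hold the mitochondrial-like and the B box sequences printed above, mean CPM was lower in Chtop than in Nxf1, with wide spread. Past PER1 it was 21.5 ± 18.7 in Chtop and 57.1 ± 64.2 in Nxf1, and past ATP5PD 18.2 ± 21.1 and 39.3 ± 35.1 (SD, n = 3). This order was not particular to them. It also held past VAV3, SLC7A8, CHTF18 and COG8, and was reversed past CEBPE, LONRF3, ZYG11A and PUSL1. Past PER1 and ATP5PD mean CPM was also lower in Chtop than in Alyref, whereas past RNF141 it was 30.8 ± 28.8 in Chtop and 20.7 ± 7.0 in Alyref (SD, n = 3).

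Window tags were tested between groups in 1 edgeR quasi-likelihood fit together with the last exons, 831 rows, of which 13 were windows that passed the filter on low counts. These were the windows past VAV3, SLC7A8, CEBPE, LONRF3, CHTF18, PER1, RNF141, ZYG11A, PUSL1, ATP5PD, VARS2, ZWINT and XRCC2. Fold changes from it are relative to last exons, since these set the normalization. With the total of tags as the only scaling, the median log2 fold change of all rows moved by 1.49 for Chtop against Nxf1, by -1.25 for Alyref against Chtop and by 0.97 for Chtop against Control.

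Against the Control, Alyref had 1 window called lower, where 0.241% of all rows were called, and Chtop 3 lower, where 7.70% were. For Nxf1 edgeR called 0 windows (0.722% of rows), with 0 at an unadjusted p under 0.05 and 0 by DESeq2. With total tags only, the counts were 0 for Alyref, 3 for Chtop (2 higher and 1 lower) and 0 for Nxf1. Of all 831 rows, 0, 416 and 0 were then called. With rows of at least 30 tags, a filter added after seeing the data that let 105 windows be tested, the 1 window called for Alyref was higher and Chtop had 4 (1 higher and 3 lower). Of all rows under that filter, 0.676% were called for Alyref and 4.06% for Chtop.

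Between factors, 4 windows were called higher in Alyref than in Chtop (5.17% of rows called), 3 lower in Alyref than in Nxf1 (6.98%) and 6 lower in Chtop than in Nxf1 (20.1%). With total tags only, these became 7 (2 higher and 5 lower), 0, and 8 (5 higher and 3 lower). Of all 831 rows, 559, 15 and 492 were then called. Of the 17 calls none changed its sign under that scaling, but 11 lost significance and 6 kept it.

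The 6 calls kept were on PER1, ATP5PD, RNF141 and CEBPE. The window past PER1 was lower in Chtop than in Nxf1 by a log2 fold change of -4.01 (SE 0.61, edgeR adjusted p = 8.51e-09) and -2.51 with total tags, and this call held under all 18 alternatives. It was higher in Alyref than in Chtop by 3.05 (SE 0.50, edgeR adjusted p = 2.37e-07). Against the Control it was lower in Chtop by -3.30 (SE 0.99, edgeR adjusted p = 0.0312), a call lost without Alyref replicate 1, Chtop replicate 2 or 3, or Control replicate 2 or 3 (largest edgeR adjusted p of these = 0.284).

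The window past ATP5PD was lower in Chtop than in Nxf1 by -4.23 (SE 0.76, edgeR adjusted p = 1.33e-06), a call kept under each of the 12 alternatives in which it passed the filter. The window past RNF141 was lower in Chtop than in Nxf1 by -3.52 (SE 0.62, edgeR adjusted p = 8.45e-07). The window past CEBPE was higher in Alyref than in Chtop by 2.38 (SE 0.33, edgeR adjusted p = 8.54e-10), and by 1.098 with total tags. The last pair and the call of PER1 in Alyref against Chtop held under each removal of 1 library, but all 3 were lost with no filter on low counts (edgeR adjusted p = 0.0988 for RNF141, 0.17 for CEBPE and 0.112 for PER1).

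The window past VAV3 was lower in Chtop than in Nxf1 by -2.82 (SE 0.52, edgeR adjusted p = 2.14e-06) and than in the Control by -2.87 (SE 0.54, edgeR adjusted p = 5.19e-05). The second was lost without Chtop replicate 2 (-2.15, edgeR adjusted p = 0.0745) or Chtop replicate 3 (-2.18, edgeR adjusted p = 0.0768), and both were lost with total tags. The other 9 calls, on VAV3, SLC7A8, CEBPE, RNF141 and ATP5PD, had log2 fold changes between -2.92 and 2.33 and were all lost with total tags.

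A gene-by-gene test asked whether the window to last exon ratio differed between groups, over 130 genes. These held at least 3 window tags over all libraries and passed a count filter that last-exon tags alone could meet. In Alyref against Control 2 genes were called (1.54% of genes tested), in Chtop against Control 9 (6.92%), in Alyref against Chtop 2 (1.54%) and in Chtop against Nxf1 3 (2.31%). In Nxf1 against Control and Alyref against Nxf1 edgeR called 0 (0% of genes tested), with 6 and 7 genes at an unadjusted p under 0.05; this test was not run with DESeq2.

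These calls rested on very few window tags. The window past CSNK1A1, casein kinase 1 alpha, was called lower relative to its last exon in Alyref and in Chtop than in the Control, from 5 window tags in Control replicate 3 and none in the other Control libraries. The window past RC3H1, which codes for the mRNA decay factor roquin-1, was called likewise from 2 tags in Control replicate 3 and 2 in Alyref replicate 3. Since the last exons of these genes held 1 and 0 Control tags, no fold change is given.

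The remaining named calls were of the same kind. TIAL1, which codes for a U-rich RNA-binding protein, had 6 and 1 window tags in Alyref replicates 2 and 3 and none elsewhere. TUG1, first known as a long non-coding RNA, had 1 and 4 in those libraries and 1 in Nxf1 replicate 3. SFXN1, a mitochondrial serine transporter, and TMPO, a protein of the nuclear lamina, had 5 and 3 window tags in Nxf1 replicate 3 and at most 2 in any other library. RCC2, GOLGA3 and AMH had 4, 3 and 3 window tags in all.

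The genes of the tagged proteins were read next. The ALYREF window (chr17:79840711-79845710) held 1, 12 and 7 tags in Alyref, 0, 10 and 11 in Chtop, 0, 3 and 11 in Nxf1 and 0 in each Control library, at 55 positions from 12 to 4998 nt. The ALYREF last exon of 311 nt held 0, 7 and 6 tags in Alyref, 0, 0 and 5 in Chtop, 0, 6 and 0 in Nxf1 and 0 in the Control. By the share of window tags among window and last-exon tags, ALYREF was among the highest 5 of the 114 genes with at least 20 such tags in each factor, with VAV3, SLC7A8, PER1 and RNF141. Its 55 tags stood at 55 different bases, and 20 of them had repeated 20 bases.

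CHTOP was the opposite. Its window held 4 tags in 12 libraries, with 0, 1 and 1 in Alyref, 0, 1 and 0 in Chtop, 0, 1 and 0 in Nxf1 and 0 in the Control, although its last exon held 2, 21 and 28 in Alyref, 3, 52 and 52 in Chtop, 2, 5 and 4 in Nxf1 and 0 in the Control. NXF1 gave no window, because another gene on its strand lies within 5000 nt. Tags of the transgene's coding sequence cannot be told apart from those of the endogenous gene.

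Groups of genes were then read by function, and their window tags are given as a pooled percentage of last-exon density. Over all 14442 windows this was 5.90% in Alyref, 2.54% in Chtop, 7.44% in Nxf1 and 14.7% in the Control, with a median of 1 tag per window. Of 20 genes of TREX and export, 13 had a window, all 13 with a tag and a median of 6 tags, at 4.94%, 3.10%, 10.9% and 30.5%. The highest of them were ALYREF and THOC5, a subunit of the THO core of TREX, whose window held 0, 7 and 13 tags in Alyref, 8, 9 and 9 in Chtop, 0, 1 and 0 in Nxf1 and 0, 2 and 1 in the Control. The Control value rests on 3 window tags.

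Of 23 genes for cleavage, polyadenylation and termination, 15 had a window and 11 of these a tag, with a median of 2, at 6.14%, 2.02%, 3.44% and 4.66% in Alyref, Chtop, Nxf1 and Control. The Nxf1 and Control values rest on 5 and 2 window tags. CPSF6, which binds RNA upstream of cleavage sites, had 12 window tags against 133 in its last exon, and CPSF2, a subunit of the complex that cuts the RNA, 11 against 90. Of the 12 SR proteins, splicing regulators rich in serine and arginine, 9 had a window, all with a tag and a median of 7, at 2.30%, 0.446%, 6.79% and 13.1%. Here the Control value rests on 5 window tags. SRSF5 had 15 window tags and 186 in the last exon, and SRSF2 12 and 275, so these RNAs were tagged densely up to the end and sparsely beyond it.

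Cytosolic ribosomal protein genes were the list with the highest values in Alyref and Chtop. Of 86 genes, 57 had a window and 54 of these a tag, with a median of 4, at 13.5%, 9.05%, 6.73% and 18.5% in Alyref, Chtop, Nxf1 and Control. In Nxf1 this pooled value lay below that of all windows. Its log2 ratio averaged over libraries lay above, at -2.95 ± 2.14 (SD) against -4.17 ± 0.97, so the 2 summaries differed in direction. The window past RPL36 held 1, 21 and 14 tags in Alyref, 0, 12 and 3 in Chtop, 0, 1 and 0 in Nxf1 and 0, 3 and 0 in the Control, against 18 tags in its last exon of 344 nt. The window past RPL11 held 31 tags against 9 in its last exon.

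Replication-dependent histone genes end in a stem-loop and carry no poly(A) tail. Of 64 such genes, 31 had a window and 22 of these a tag, with a median of 1, at 2.79% in Alyref, 5.56% in Chtop, 0.773% in Nxf1 and 2.42% in the Control. The Nxf1 value rests on 8 window tags and the Control value on 1. H2AC16 had 14 window tags and 7 in its last exon, and H2AC11 12 and 62. No window of any of these 5 lists was among the 13 tested for counts, and whether a list differed from the other windows was not tested.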

How the data were processed

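The authors removed phiX reads with Bowtie 1.1.2, handled random barcodes with UMI-tools 0.5.3, used Reaper for trimming and demultiplexing, aligned with STAR 2.4.2a to hg19 keeping unique reads, merged lanes and collapsed duplicates by barcode. The deposited values are counts of such deduplicated reads (tags) per crosslinked base and strand, so counts cover 1 cDNA each and intervals cover counting error only. The 32 lane runs belong to 12 libraries, used as deposited; 0 columns stayed unused.

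Windows were laid out on GENCODE 44 mapped to GRCh37. Tags were summed with Python 3.11.15, 0.5 was added before ratios, and ratios were tested by exact permutation with Benjamini-Hochberg adjustment over 12 comparisons per family. edgeR 4.0.16 (R 4.3.3; TMM, filterByExpr with a minimum count of 5 and a minimum total of 15) tested counts and per-gene ratios at an adjusted p of 0.05, with DESeq2 1.42.0 as an alternative. Scripts were tested on simulated data. For the per-gene ratio the simulation used 10 times the window depth of these data, so it does not speak for the depth here. The filter left only 13 windows. The members and lists were chosen with earlier results of these data known. Named are the 10 windows with the highest mean CPM over groups and tags in at least 2 libraries of each factor, the 3 called windows or genes with the largest fold per direction, the genes of the tagged proteins, 2 per list, the 6 bases in most libraries, and the 5 genes with the highest window share; CCDC115 and the remaining tested windows were named after their values were seen. Alternatives covered the window rule, reference sequence, pseudocount, repeated positions, filters, scaling, the replicate block and single libraries.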

Additional observations from a re-analysis of the deposited data

How the results depend on the processing

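Depth limits these results: 13 of 14442 windows passed the count filter, 105 had at least 30 tags, and replicate 1 was the shallowest library of every group. The following 6 alternatives were chosen after seeing the data: leaving out the windows past VAV3, SLC7A8 and CEBPE, leaving out replicate 1 of all groups, leaving out tags with repeated 20 bases, leaving out windows facing the end of a gene on the other strand, and minimums of 30 tags for rows or genes. Of the alternative values of the ratio differences, leaving out single libraries apart, 226 kept their direction and side of the threshold, 24 changed sign and 5 crossed the threshold. Differences from the Control could not cross it, since 3 against 3 libraries give no exact permutation p below 0.1. The replicate block changes only the p and not the difference. Part of the 226 was therefore fixed in advance, and the number does not measure stability. The cause of the changes was not tested. For the window to last exon ratio, weighing genes equally turned Nxf1 minus other factors to -1.55 percentage points. In that value Nxf1 replicate 1 entered at 0% from only 2 genes, against 191 and 116 genes in Nxf1 replicates 2 and 3. Single-library removals of the main ratio gave -1.18 to -0.67 for Chtop and -0.039 to 0.92 for Nxf1 against the other factors. For near to far, the values that changed sign were 0.19 (without the 3 windows) and 0.17 (without replicate 1) for Alyref minus Control, -0.044 (first 250 nt) and -0.036 (repeated tags) for Chtop minus Control, 0.13 (without replicate 1) for Nxf1 minus Control and 0.027 (without the 3 windows) for Alyref minus other factors. Chtop minus other factors lost its unadjusted significance at 0.14 (first 250 nt) and 0.14 (repeated tags). Without replicate 1 it was 0.15, where 2 against 4 libraries allow no exact permutation p below 0.0667. Nxf1 minus other factors reached -0.29 without the 3 windows (exact permutation p = 0.0238). Removals gave -0.14 to 0.16 for Alyref and -0.19 to 0.11 for Nxf1 minus Control and 0.16 to 0.23 for Chtop minus other factors. For sense to antisense, signs changed for Alyref minus Control (-0.095 with 10 kb free, -0.0059 without the first 250 nt, -0.069 without repeated tags), Chtop minus Control (-0.041 and -0.0045 for the first pair), Nxf1 minus Control (-0.12, -0.028, and -0.28 without replicate 1), Alyref minus other factors (0.0102 without the first 250 nt, 0.029 without facing windows, 0.33 without replicate 1), Chtop minus other factors (-0.019 without facing windows) and Nxf1 minus other factors (-0.054 with 10 kb free, -0.022 without the first 250 nt, -0.028 without the 3 windows, -0.0102 without facing windows, -0.57 without replicate 1). Removals there gave -0.25 to 0.33, -0.21 to 0.36 and -0.27 to 0.46 for Alyref, Chtop and Nxf1 minus Control and -0.27 to 0.26, -0.23 to 0.22 and -0.32 to 0.41 against the other factors. For window to intron, Chtop minus other factors was 0.78 without replicate 1 (exact permutation p = 0.0667, the smallest that 2 against 4 allow). Windows called for Alyref against Control, Chtop against Control, Alyref against Chtop, Alyref against Nxf1 and Chtop against Nxf1 moved to 0, 3, 7, 0 and 8 with total tags only, to 0, 7, 0, 0 and 10 with no filter, to 0, 0, 2, 0 and 3 with DESeq2, and to 1 (higher), 4 (1 higher), 17, 1 and 11 with rows of at least 30 tags. In the same order, total tags only called 0, 416, 559, 15 and 492 of all 831 rows. Rows of at least 30 tags were called at 0.676%, 4.06%, 1.87%, 1.04% and 7.93%. Removals gave 0 to 2, 0 to 4, 2 to 9, 0 to 3 and 3 to 11 windows. For no filter, DESeq2 and removals of 1 library the share of all rows called is not given. The rows tested can change with the filter or the libraries, so these counts cannot be set directly against the main fit. The gene counts below with no filter, without positions of over 3 tags and under removals carry the same limit. Genes called by ratio moved to 0 (Alyref against Control), 5 (Chtop against Control) and 0 (Alyref against Chtop) with no filter, to 0, 0 and, for Chtop against Nxf1, 1 with at least 30 window tags, and to 0 and 5 without positions of over 3 tags; removals gave 0 to 6 and 1 to 12 for Alyref and Chtop against Control, and 0 to 12, 0 to 2 and 0 to 20 for Alyref against Chtop, Alyref against Nxf1 and Chtop against Nxf1. Of the 17 called windows, 6 kept their call under each removal of 1 library and 11 lost it under at least 1. With the replicate number as a block, the window call of Alyref against Control went to 0 and the 4 gene-ratio counts above 0 all went to 0, while the exact permutation p of Chtop minus other factors was 0.037 for near to far and 0.037 for window to intron. Same-numbered libraries of different groups correlated from -0.06 to 0.14 in their deviations, against -0.11 to 0.07 for others, so the numbers were not taken to pair the libraries. That check compares single rows after scaling and cannot see a shift of a whole library. The window to last exon ratio rose from replicate 1 to 3 in Alyref, Nxf1 and Control and fell in Chtop, so a shared replicate effect on the ratios was not tested by it.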
